A study of Mus musculus with 6 samples.

Results

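The levels of microRNAs (miRNAs) in macrophages sorted from the mouse colon were compared with those in macrophages sorted from the liver. The comparison used the 2 colon arrays and the 2 liver arrays of a series of 6, of which the remaining 2 held brain microglia. Of the 1247 mouse miRNAs on each array, 396 were detected on both arrays of the colon group, of the liver group, or of both, and these were tested. The study asked which miRNAs mark microglia among tissue macrophages, so colon and liver macrophages were its comparison populations. All cells came from untreated wild-type male C57BL6/J mice kept in SPF conditions, aged 6 weeks in the sample labels and 6 to 8 weeks in the design text. Colon macrophages carried CD64, CD11c, CD11b and CD45 and lacked Ly6C. Liver macrophages, which the design text also abbreviates as KCs, carried MHCII, CD64, F4/80, CD11b and CD45. Neither gate, as labelled, names a marker of epithelium, endothelium or hepatocytes. Each array held RNA of a separate pool of 4 to 6 mice, so the spread between the arrays of a group is that between pools and between hybridisations.

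A miRNA is a short RNA that guides an Argonaute protein to messenger RNAs, mostly by pairing of its seed, bases 2 to 8, and so lowers their translation and stability. A hairpin precursor has 2 arms, 5p and 3p, either of which can become the mature miRNA. Macrophages of the colon wall lie under the epithelium and are largely renewed from blood monocytes. Those of the liver sit in the sinusoids, against endothelium and hepatocytes, and are in large part maintained locally. Many miRNAs are characteristic of one cell lineage: the miR-200 family of epithelium, miR-122 of hepatocytes, miR-126 of endothelium, miR-143 and miR-145 of smooth muscle and fibroblasts, miR-150 of mature lymphocytes, and miR-142 and miR-223 of blood and myeloid cells.

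The sequences below belong to a choice of the miRNAs named in the comparison and to their relatives. They are mature miRNAs from RefSeq on mouse assembly GRCm38.p6, with the seed in capitals, and a mature sequence of the same name was matched for 304 of the 396 tested miRNAs. For miR-122-5p, miR-126-5p, miR-143-3p and miR-151-5p none was matched, so these are not shown. The first group, the epithelial miR-200 family with the gut epithelial pair miR-192 and miR-215, held the largest differences towards colon.
miR-200b-3p: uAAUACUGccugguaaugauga
miR-429-3p: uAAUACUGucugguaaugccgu
miR-200c-3p: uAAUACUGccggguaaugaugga
miR-200a-3p: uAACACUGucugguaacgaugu
miR-141-3p: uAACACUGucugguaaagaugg
miR-215-5p: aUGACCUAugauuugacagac
miR-192-5p: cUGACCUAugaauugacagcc
The miRNAs encoded in the Hox clusters come as pairs with a common seed, and the members of the miR-10 pair gave different results.
miR-196a-5p: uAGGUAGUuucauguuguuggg
miR-196b-5p: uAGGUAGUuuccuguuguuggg
miR-10a-5p: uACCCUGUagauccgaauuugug
miR-10b-5p: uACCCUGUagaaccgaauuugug
Next come colon-high miRNAs on no marker list, miR-146b beside its relative miR-146a.
miR-34a-5p: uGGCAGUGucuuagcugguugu
miR-146b-5p: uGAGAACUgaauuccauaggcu
miR-146a-5p: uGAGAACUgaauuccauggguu
The last group holds liver-high miRNAs and, for miR-99b, both arms of 1 hairpin, which differed in direction.
miR-490-5p: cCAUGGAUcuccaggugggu
miR-708-5p: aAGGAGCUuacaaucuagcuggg
miR-7a-5p: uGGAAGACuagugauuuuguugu
miR-99b-3p: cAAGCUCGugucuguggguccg
miR-99b-5p: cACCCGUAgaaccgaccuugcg

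Levels are given as log2 scaled signal. To scale the linear signals, the 75th percentile of the 248 miRNAs with detection on every one of the 6 arrays was set equal across arrays, and signals under a floor of 3.12 scaled units, which is 1.64 on the log2 scale, were set to that floor. Brightness also depends on the probe, so a level is compared between groups within a miRNA. The colon arrays detected 403 and 352 miRNAs, the liver arrays 386 and 389, and 801 were detected on none of these 4. Over the 313 miRNAs detected on all 4, log2 levels correlated across miRNAs at r = 0.984 between the colon arrays, at 0.951 between the liver arrays and at 0.908 to 0.917 between a colon and a liver array. The liver arrays stood further apart than the colon arrays: the median absolute difference was 0.60 log2 units between the liver arrays, 0.26 between the colon arrays and 0.47 between the group means. Liver array 2 was the higher for 206 of the 313 miRNAs, by a median of 0.42.

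Of the 396 tested miRNAs, 46 passed limma's test at an adjusted p under 0.05, which is 11.6% of those tested. Higher levels in colon were called for 23 miRNAs (5.81%), and 23 (5.81%) were called higher in liver. The median difference over all tested miRNAs was −0.04 log2 units, and 253 of the 313 miRNAs detected on all 4 arrays lay within 1 log2 unit between the groups. Both colon arrays stood on the same side of both liver arrays for 236 miRNAs (59.6%), so that a lack of overlap between 2 and 2 arrays was common here. Before adjustment 92 miRNAs had a p under 0.05. The 95% confidence intervals reached a median of 1.00 log2 unit to either side, so smaller differences were mostly not detectable at 2 arrays a group. For 20 of the 46 called miRNAs the mean of the higher group was under 5 log2 units, which is dim.

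**Figure D1:**
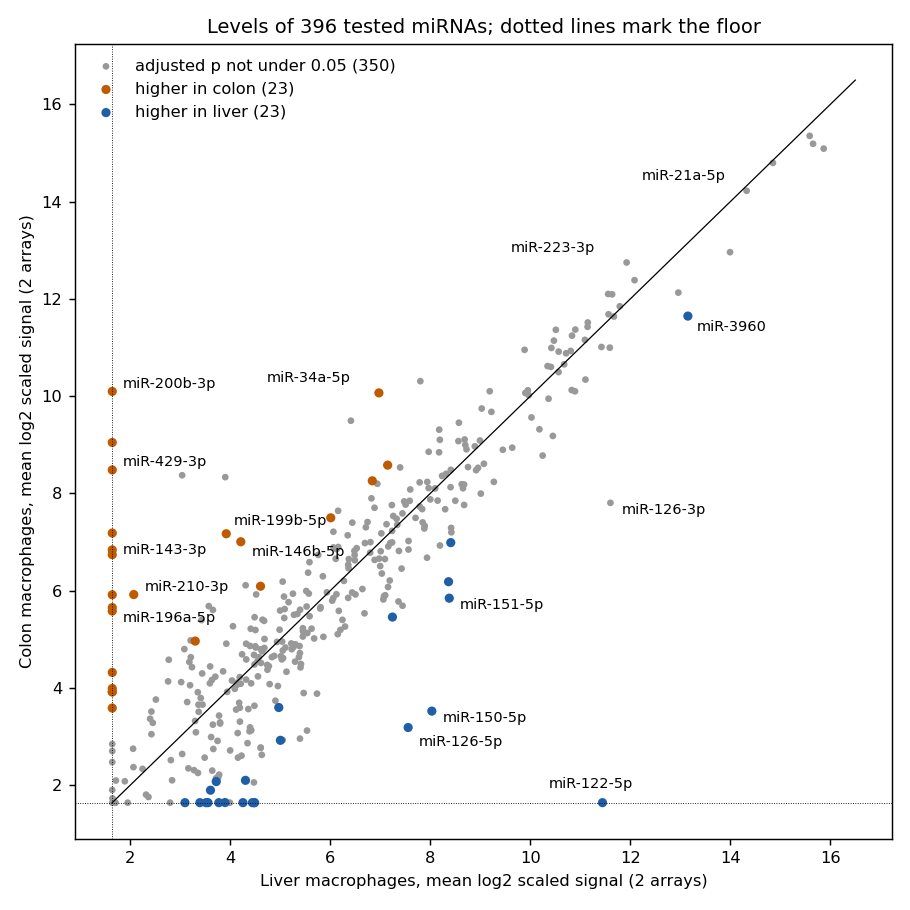
Mean log2 scaled signal in colon macrophages (vertical axis) against liver macrophages (horizontal axis), 2 arrays each, for the 396 tested miRNAs, with the 23 called higher in colon in orange and the 23 called higher in liver in blue. Most points lie near the line of equal levels, while the miRNAs on the dotted lines stand at the floor of 1.64 in 1 of the groups.

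Undetected miRNAs made up much of the called set. Among the 23 colon-high miRNAs, 14 were detected on neither liver array, 8 were detected on all 4 arrays and 1 was detected on a single liver array. The 23 liver-high miRNAs divided into 10 detected on neither colon array, 10 detected on all 4 arrays and 3 detected on a single colon array. Where a group had no detection, its level is a bound, and the difference is given as at least N-fold, where each array of the undetected group is taken at the floor or at its lowest detected signal, whichever is higher. Of the tested miRNAs, 37 were included through detection on both colon arrays alone and 46 through both liver arrays alone. All 37 of the first kind pointed to colon and 44 of the 46 of the second to liver, a direction that this choice largely sets. Of the 46 calls, 15 and 13 belong to these kinds, and 18 to the 313 miRNAs detected on all 4 arrays. Counts by list below therefore give how many members passed through 1 group alone, and such members are no support for the direction of a list.

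The miRNAs of the macrophages' own lineage were bright in both groups, and none of the 4 tested members of this list was called. miR-223-3p, a miRNA of granulocytes and macrophages, stood at 12.67 and 12.83 in colon and at 11.45 and 12.40 in liver. Colon exceeded liver on every pair of arrays, but the difference of 0.82 ± 0.40 (SE) had an adjusted p of 0.298. Groups without overlap were seen for 59.6% of all tested miRNAs. miR-142-3p, which is made in all blood lineages, read 11.89 and 12.31 in colon and 11.24 and 12.04 in liver, and its groups overlapped. miR-511-3p lies in an intron of the mannose receptor gene Mrc1, a gene of tissue macrophages, and read 9.37 and 8.85 against 8.21 and 9.16. That miRNA was detected on neither microglia array. Summed over the list, the scaled signal was 11371 and 13368 in colon and 5891 and 10659.8 in liver. With liver array 2 left out 1 of these members was called higher in colon. miR-21a-5p, among the brightest miRNAs of both groups and a miRNA of activated myeloid cells, read 14.20 and 14.25 in colon and 13.50 and 15.16 in liver. Its difference of −0.10 had a 95% interval of −1.51 to 1.30, and the sign turned under quantile normalization and in the authors' value table.

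Epithelial miRNAs were the largest group on the colon side: 6 of 8 tested list members were called higher in colon and 0 in liver. All 6 were tested through colon alone, since none was detected on a liver array, so a direction towards colon was set by their choice. Over all tested miRNAs 5.81% were called higher in colon, and of the 37 tested through colon alone 15 were. miR-200b-3p, which represses the Zeb transcription factors in epithelial cells, read 10.34 and 9.86 on the colon arrays and was detected on neither liver array. Colon was at least 351.4-fold higher, with an adjusted p of 0.0497. miR-200a-3p, from the same transcript on chromosome 4, read 9.30 and 8.80 in colon and was at least 169.8-fold higher. miR-429-3p, the third miRNA of that cluster, read 8.83 and 8.14 and was at least 115-fold higher. miR-375-3p, a miRNA of secretory epithelium and endocrine cells, read 7.13 and 6.35 and was at least 34.3-fold higher. These 3 had adjusted p of 0.0487, 0.0400 and 0.0359. Without 1 of the colon or liver arrays the adjusted p ranged from 0.201 to 0.347 for miR-200a-3p, from 0.179 to 0.310 for miR-429-3p and from 0.161 to 0.270 for miR-375-3p. The dimmer miR-203-3p, known from stratified epithelium, read 4.83 and 3.81, and miR-205-5p read 4.43 and 3.41. Both were called, with adjusted p of 0.0182 and 0.0300. They lost the call without liver array 1 (0.0703 and 0.0882) or liver array 2 (0.0823 and 0.102).

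The members encoded at the second miR-200 locus, on chromosome 6, were detected in both groups and missed the threshold. miR-141-3p read 8.61 and 8.13 in colon and 2.43 and 3.65 in liver, a difference of 5.34 ± 1.44 with an adjusted p of 0.0779. miR-200c-3p read 8.57 and 8.10 in colon and 3.35 and 4.45 in liver, a difference of 4.43 ± 1.12 with an adjusted p of 0.0640. All 8 list members, the 6 tested through colon alone among them, were higher on colon array 1 than on colon array 2.

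Microglia array 1 enters the standard errors of this list. That array detected 7 of the 8 epithelial miRNAs and microglia array 2 detected 2, with summed scaled signals of 672 and 55.2, and the model shares 1 spread over the 3 groups. miR-200b-3p, at 7.94 on microglia array 1 and undetected on array 2, had an SE of 1.91 for its difference. When the 4 colon and liver arrays were fitted alone, 7 of the 8 members were called and the adjusted p of miR-200b-3p was 0.000810. Its adjusted p ranged from there to 0.362 over the alternatives. Leaving out colon array 1 or colon array 2 left 2 members called, and leaving out liver array 1 or liver array 2 left 0. Median scaling, quantile normalization, scaling over the 4 arrays and the authors' value table left 2 members called as well.

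Gut epithelial miRNAs pointed the same way, with 1 of 3 tested members called, the 1 that was tested through colon alone. Of all 37 miRNAs tested that way, 15 were called. miR-215-5p, which with miR-192 and miR-194 is a product of intestinal epithelium, read 7.31 and 7.06 in colon, was detected on neither liver array, and was at least 46.7-fold higher with an adjusted p of 0.0300. Without 1 of the colon or liver arrays its adjusted p lay between 0.136 and 0.266. miR-192-5p read 10.56 and 10.06 in colon and 7.23 and 8.38 in liver, and its difference of 2.51 ± 1.64 had an adjusted p of 0.386. miR-194-5p read 9.70 and 9.29 against 5.88 and 6.95, with an adjusted p of 0.337. For both, colon and liver did not overlap, as was so for 59.6% of all tested miRNAs. The microglia arrays enter these standard errors too. miR-192-5p read 8.15 and 2.87 on them, and miR-194-5p read 7.42 on array 1 and was undetected on array 2. With the 4 colon and liver arrays fitted alone, limma's adjusted p was 0.0611 for miR-192-5p and 0.0316 for miR-194-5p. That fit was the 1 alternative of 16 that called miR-194-5p, and 0 called miR-192-5p. Of the remaining list members, miR-31-5p was detected on 1 liver array and miR-147-3p on none of the 4.

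Smooth muscle and fibroblast miRNAs were higher in colon for 4 of 7 tested members, with none called towards liver, and 3 of these 4 were tested through colon alone. Among all 37 miRNAs tested through colon alone 15 were called, and over all tested miRNAs 5.81% were called higher in colon. miR-143-3p, which keeps vascular and visceral smooth muscle in its contractile state, read 7.31 and 6.37 in colon, was detected on neither liver array nor on a microglia array, and was at least 36.7-fold higher with an adjusted p of 0.00167. miR-145a-5p, from the same transcript on chromosome 18, read 4.50 and 3.48 and was at least 5.09-fold higher. miR-1a-3p, a miRNA of muscle, read 4.48 and 3.36 and was at least 4.85-fold higher. Both lost the call without liver array 1 (0.0860 and 0.106) or liver array 2 (0.0993 and 0.121). miR-199b-5p, found in mesenchymal cells, read 7.42 and 6.92 in colon and 4.14 and 3.70 in liver, a difference of 3.25 ± 0.66 with an adjusted p of 0.0400. With 1 colon or liver array left out the adjusted p of miR-199b-5p was 0.134 to 0.266. Colon array 1 exceeded colon array 2 for all 7 members. Among the members not called, miR-199a-3p read 8.09 and 7.71 in colon and 7.05 and 6.60 in liver, so these miRNAs were not absent from the liver arrays. Leaving out liver array 1 or liver array 2 left 1 member of the list called, and miR-143-3p was called in each of the 15 alternatives that tested it, with an adjusted p of 0.00141 to 0.0310.

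**Figure D2:**
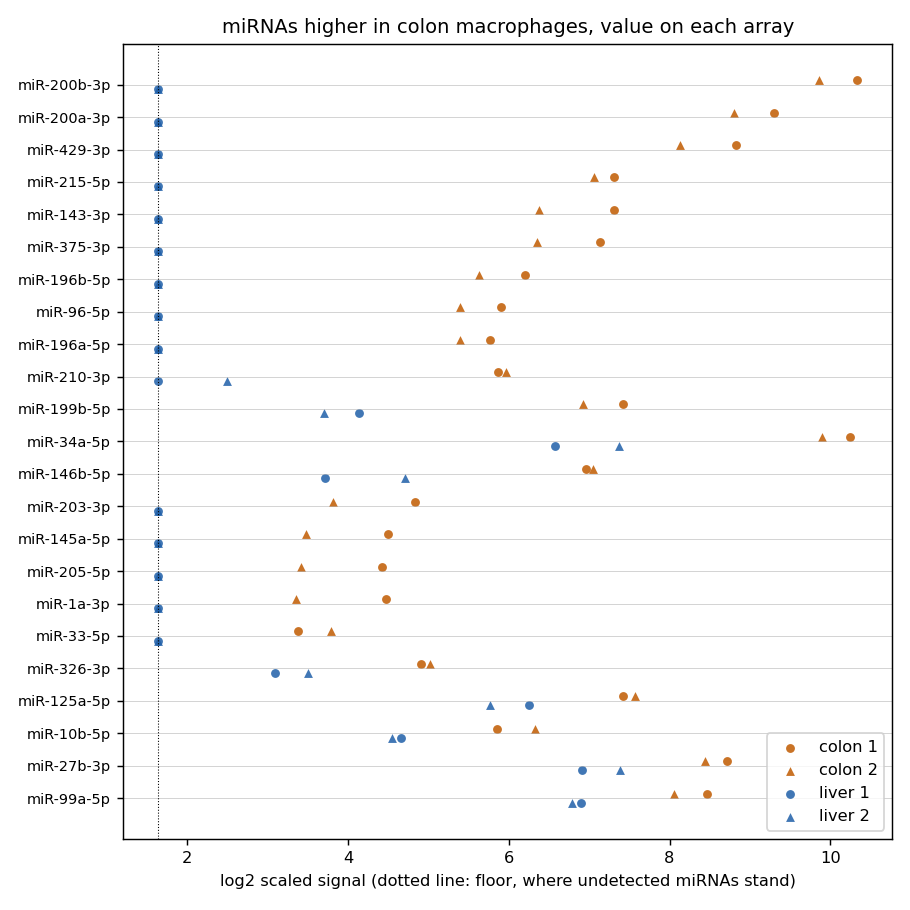
Log2 scaled signal on each of the 4 arrays (horizontal axis) for the 23 miRNAs called higher in colon, circles for array 1 and triangles for array 2 of each group, with a dotted line at the floor. Symbols on the dotted line stand for arrays without detection, and the 2 colon arrays lie to the right of both liver arrays in every row.

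miR-122-5p held the largest difference towards liver among all tested miRNAs. It is the dominant miRNA of hepatocytes, where it acts on lipid metabolism, and it is also released into blood. The miRNA read 11.07 and 11.82 on the liver arrays and was detected on neither colon array, so that liver was at least 758-fold higher with an adjusted p of 0.000359. Both microglia arrays detected it as well, at 8.11 and 7.30. The other arm, miR-122-3p, was detected on liver array 2 alone and was not tested. miR-122-5p was called in each of the 15 alternatives that tested it, with an adjusted p of 0.000102 to 0.0435.

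Endothelial miR-126 followed the same direction. Both arms come from an intron of Egfl7, a gene of endothelial cells. miR-126-5p read 7.80 and 7.32 in liver and 3.09 and 3.28 in colon, a difference of −4.37 ± 0.31 with an adjusted p of 0.00167. miR-126-3p, which promotes vascular growth signalling, read 11.94 and 11.27 in liver and 7.90 and 7.71 in colon. Its difference of −3.80 ± 1.10 had an adjusted p of 0.0900, with microglia array 1 at 5.15 and microglia array 2 undetected. In the fit of the 4 colon and liver arrays alone its adjusted p was 0.00762, and the range over the alternatives reached 0.494.

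miR-150-5p, which restrains Myb in mature lymphocytes and is abundant in monocytes, read 8.97 and 7.09 in liver and 2.83 and 4.22 in colon. The difference was −4.51 ± 0.75 with an adjusted p of 0.0250, the largest towards liver among miRNAs detected on all 4 arrays. It lost the call without colon array 1 (adjusted p = 0.179), colon array 2 (0.131) or liver array 1 (0.0712), and kept it without liver array 2 (0.0473). Its other arm, miR-150-3p, was detected on both liver arrays and on colon array 1, with signals under the floor on colon array 1 and liver array 1, and the difference was −0.06. miR-451a, a miRNA of erythrocytes, read 7.43 and 7.30 in liver and 5.88 and 5.68 in colon. The arrays did not overlap, as for 59.6% of all tested miRNAs, and the adjusted p was 0.314.

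Taking the marker lists by their summed scaled signal shows how far the groups stood apart. Over all epithelial list members the sum reached 3342 and 2315 in colon, against 15.6 and 34.4 in liver. The smooth muscle and fibroblast list summed to 745 and 496 in colon and to 220.8 and 146.8 in liver. For hepatocytes no colon array detected a member, and the liver sums were 2143 and 3639. Endothelial signal was 247 and 220 in colon and 4140 and 2631 in liver. For the neuronal list the sums were 15.8 and 9.58 in colon and 12.1 and 27.6 in liver, which overlap. Since each sample is a bulk RNA pool, a larger number of cells of a type and more RNA per cell cannot be told apart. Whether these signals come from cells of those types within the sorted pools was not tested, nor was their part in the other differences.

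**Figure D3:**
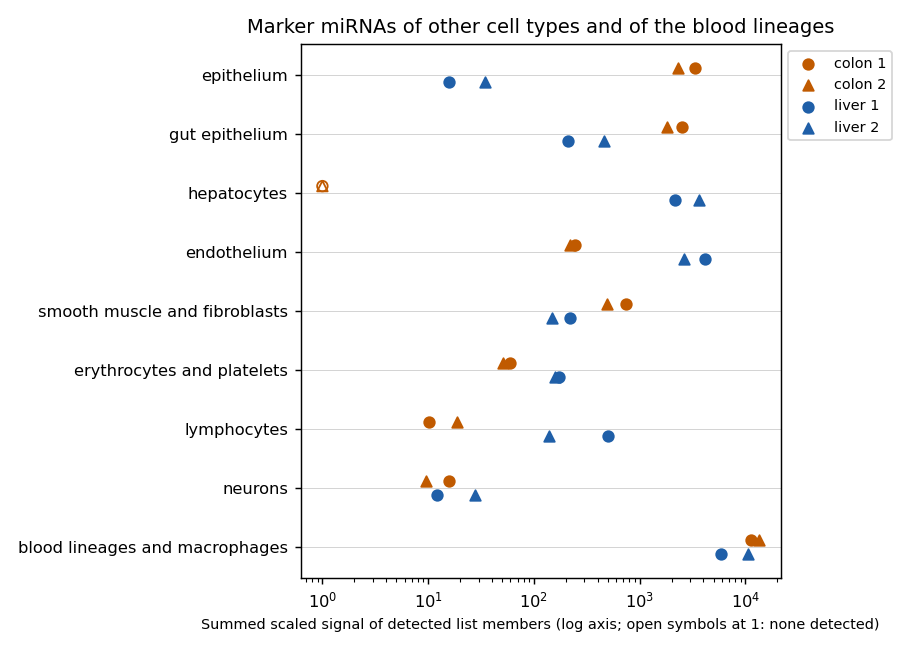
Summed scaled signal (log axis) of the members of 9 marker lists detected on each colon array (orange) and liver array (blue), with open symbols at 1 where no member was detected. Epithelial lists and the smooth muscle and fibroblast list lie to the right in colon, and the hepatocyte, endothelial and lymphocyte lists lie to the right in liver.

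The Hox clusters encode miR-10 and miR-196, which are transcribed with the Hox genes along the body axis and repress Hox messenger RNAs. Of 4 tested members, 3 were called higher in colon, of which the 2 miR-196 members were tested through colon alone. Over all tested miRNAs 5.81% were called higher in colon, and of the 37 tested through colon alone 15 were. miR-196b-5p, from chromosome 6 between Hoxa9 and Hoxa10 (chr6:52230129-52230150, minus strand), read 6.20 and 5.63 in colon and was detected on neither liver array. Colon was at least 19.4-fold higher, with an adjusted p of 0.0119. The call was lost without colon array 1 (0.127), colon array 2 (0.127), liver array 1 (0.0717) or liver array 2 (0.0865). miR-196a-5p, encoded both between Hoxb13 and Hoxb9 on chromosome 11 and between Hoxc10 and Hoxc9 on chromosome 15, read 5.77 and 5.39. It was detected on neither liver array nor on a microglia array, and colon was at least 15.3-fold higher with an adjusted p of 0.00167. The array does not tell these copies apart, since they give the same mature sequence.

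miR-10b-5p and miR-10a-5p, shown above with the same seed, lay apart in this comparison. miR-10b-5p, encoded within Hoxd4 at chr2:74726074-74726096 (plus strand), read 5.86 and 6.33 in colon and 4.66 and 4.55 in liver. The difference of 1.49 ± 0.31 had an adjusted p of 0.0401, which lay between 0.0387 and 0.0794 over the alternatives, with 0.0731 without liver array 2. miR-10a-5p, encoded beside Hoxb4, was brighter in both groups, at 8.31 and 8.50 in colon and 8.41 and 8.23 in liver. Its groups overlapped, and the difference of 0.09 had a 95% interval of −0.67 to 0.85 and changed sign under control-row scaling (−0.19). The difference between the members of the pair was not tested. miR-196a-5p was called in each of the 15 alternatives that tested it. Without colon array 1, colon array 2 or liver array 1 the count for the list was 2, and without liver array 2 it was 1, while the fit of the 4 arrays gave 2.

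Several colon-high miRNAs belonged to no marker list. miR-34a-5p, a target of p53 that slows the cell cycle, lies at chr4:150068473-150068494 (plus strand) and read 10.24 and 9.89 in colon and 6.57 and 7.38 in liver. The difference was 3.09 ± 0.40, or 8.54-fold, with an adjusted p of 0.0115. Its levels on the microglia arrays, 7.99 and 8.47, lay between the groups. It was called in 14 of 16 alternatives and lost the call without colon array 1 (adjusted p = 0.0959) or colon array 2 (0.0894). The remaining 5 miRNAs of the miR-34 list were detected on none of the 4 arrays.

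miR-146b-5p, which like miR-146a dampens Toll-like receptor signalling through Irak1 and Traf6, read 6.96 and 7.05 in colon and 3.71 and 4.71 in liver. The difference was 2.79 ± 0.41 with an adjusted p of 0.0168, and both microglia arrays lay near the colon level, at 6.86 and 7.10. It was called in 14 of 16 alternatives, and the exceptions were the fits without colon array 1 (0.116) and without colon array 2 (0.139). miR-146a-5p, with the same seed, was bright in both groups, at 11.07 and 10.91 in colon and 9.90 and 10.95 in liver, and its groups overlapped. Of the 7 tested miRNAs that respond to inflammation, miR-146b-5p was the one called, where 11.6% of all tested miRNAs were called. miR-155-5p, induced by inflammatory signals, read 4.84 and 5.28 in colon and 5.72 and 5.19 in liver, and miR-132-3p read 6.37 and 6.80 in colon and 5.29 and 5.88 in liver with an adjusted p of 0.386.

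Another 3 colon-high miRNAs were picked for mention after their values were seen. miR-210-3p, which hypoxia-inducible factor induces, read 5.87 and 5.97 in colon, was undetected on liver array 1 and stood at 2.50 on liver array 2. The difference was 3.85 ± 0.39 with an adjusted p of 0.00471, and the microglia arrays stood at 6.19 and 6.52. miR-33-5p, encoded in an intron of the sterol regulator gene Srebf2, read 3.38 and 3.79 in colon, was detected on neither liver array, and was at least 3.85-fold higher with an adjusted p of 0.0182. miR-210-3p lost the call without colon array 1 (0.0542) or colon array 2 (0.0676), while miR-33-5p kept it without each colon and liver array in turn. miR-96-5p, from a cluster best known for its role in sensory cells, read 5.91 and 5.40 in colon with no detection on a liver or a microglia array. Colon was at least 16.1-fold higher, with an adjusted p of 0.00167.

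Smaller differences towards colon were found for miRNAs detected on all 4 arrays. miR-326-3p, from an intron of Arrb1, read 4.90 and 5.02 in colon and 3.09 and 3.51 in liver (difference 1.66, limma adjusted p = 0.0310). miR-27b-3p, of the chromosome 13 cluster with miR-23b and miR-24 in an intron of Aopep, read 8.72 and 8.44 in colon and 6.92 and 7.38 in liver (1.43, adjusted p = 0.0487). It was the 1 called miRNA of 7 tested in the miR-23, miR-24 and miR-27 list, of which 6 pointed to colon. Over all tested miRNAs 11.6% were called. miR-27a-3p, which has the same seed and lies on chromosome 8, read 11.06 and 10.85 in colon and 9.32 and 10.45 in liver, with an adjusted p of 0.214. These calls were fragile: miR-326-3p lost it without colon array 1 (0.0883) or colon array 2 (0.0994), and miR-27b-3p without the same arrays (0.150 and 0.112).

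The miR-99, miR-100 and miR-125 list had called members in both directions, 2 higher in colon and 1 higher in liver of 7 tested. Over all tested miRNAs 5.81% were called in each direction. miR-125a-5p, a miRNA of blood progenitors and macrophages, read 7.43 and 7.57 in colon and 6.25 and 5.77 in liver (1.49, adjusted p = 0.0409). miR-99a-5p, which acts on the mTOR pathway, read 8.46 and 8.06 in colon and 6.90 and 6.79 in liver (1.42, adjusted p = 0.0497). miR-125a-5p lost the call without either colon array (0.116 and 0.140), and miR-99a-5p without any one of the colon or liver arrays (0.0717 to 0.150). Towards liver stood miR-99b-3p, at 3.71 and 4.08 in liver, at 1.65 on colon array 1, just over the floor, and undetected on colon array 2, so that it was tested through liver alone. The difference was −2.25 ± 0.29 with an adjusted p of 0.0115. The 5p arm of the same hairpin, miR-99b-5p, read 6.25 and 6.12 in colon and 5.42 and 4.68 in liver, a difference of 1.14 with an adjusted p of 0.113. miR-99b, let-7e and miR-125a lie within 1 cluster on chromosome 17, and let-7e-5p read 8.32 and 8.08 in colon and 7.10 and 6.79 in liver with an adjusted p of 0.0598. No member of the list was called higher in colon when either colon array was left out or when the 4 arrays were fitted alone. miR-99b-3p was called in each of the 15 alternatives that tested it, with an adjusted p of 0.00352 to 0.0493.

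Among the liver-high miRNAs outside the marker lists, miR-151-5p kept its call in all 16 alternatives, with an adjusted p of 0.00528 to 0.0462. It lies in an intron of Ptk2, the focal adhesion kinase gene, and read 8.22 and 8.54 in liver and 5.96 and 5.73 in colon. The difference was −2.53 ± 0.30, or 5.79-fold, with an adjusted p of 0.00864. The microglia arrays, at 5.93 and 5.71, stood at the colon level. miR-331-3p, from an intron of Vezt, read 7.67 and 9.06 in liver and 6.30 and 6.07 in colon (−2.18, adjusted p = 0.0497). miR-7a-5p, encoded in an intron of Hnrnpk among other loci and known to repress growth factor signalling, read 6.95 and 7.54 in liver and 5.34 and 5.57 in colon (−1.79, adjusted p = 0.0339). Without colon array 1 or colon array 2 the adjusted p was 0.226 and 0.343 for miR-331-3p and 0.149 and 0.131 for miR-7a-5p.

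The remaining miRNAs of this kind detected on all 4 arrays were miR-546, miR-878-3p, miR-3960, miR-680 and miR-292-5p, with differences of −2.08, −1.65, −1.50, −1.42 and −1.37. The last of these, miR-680 and miR-292-5p, are named after their values were seen. miR-3960 was bright throughout, at 12.79 and 13.51 in liver and 11.63 and 11.67 in colon, and had an adjusted p of 0.0497. It lost the call without colon array 1 (0.197) or colon array 2 (0.225). Each of the other 4 lost its call without at least 1 array, the highest adjusted p being 0.150 for miR-546, 0.0638 for miR-878-3p, 0.179 for miR-680 and 0.164 for miR-292-5p.

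Dim miRNAs that were detected in liver and on neither colon array included miR-490-5p, miR-3102-3p, miR-6236, miR-708-5p and miR-29c-5p, all tested through liver alone. miR-490-5p, which lies in an intron of Chrm2, a muscarinic receptor gene, read 4.58 and 4.31 in liver and was at least 5.92-fold higher with an adjusted p of 0.00471. miR-3102-3p read 4.65 and 4.30 and was at least 6.05-fold higher, and miR-6236 read 4.76 and 4.22 and was at least 6.10-fold higher. miR-708-5p, from an intron of Tenm4, read 3.75 and 4.76 and was at least 5.19-fold higher with an adjusted p of 0.0187. miR-708-5p lost the call without colon array 1 (0.128) or colon array 2 (0.148), and miR-6236 without colon array 2 (0.0522). miR-28a-5p, added here for its seed, which it shares with miR-708-5p, was detected on all 4 arrays and differed by −0.42 with an adjusted p of 0.468. None of miR-490-5p, miR-3102-3p, miR-6236 and miR-708-5p was detected on a microglia array. Their levels are close to the floor, which keeps the bounds small.

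**Figure D4:**
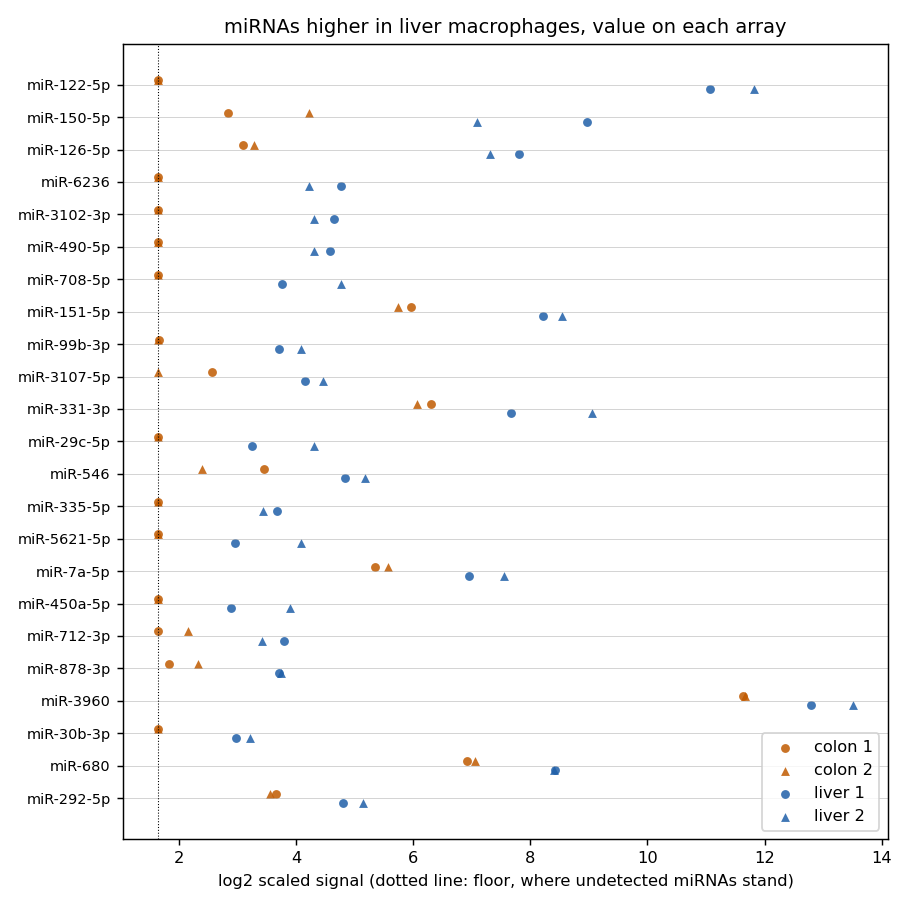
Log2 scaled signal on each of the 4 arrays (horizontal axis) for the 23 miRNAs called higher in liver, circles for array 1 and triangles for array 2 of each group, with a dotted line at the floor. miR-122-5p stands far from the rest, and most of the other miRNAs lie under 5 log2 units on the liver arrays.

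Large families found in most cell types gave no calls. Of all tested miRNAs 11.6% were called, and of the 313 detected on all 4 arrays 18 were. At such a share, lists of this size may hold no call, so the 0 counts are no result about these families. Of 9 tested let-7 miRNAs, which restrain growth genes in differentiated cells, 0 were called by limma, and the differences ran from −0.07 to 1.26 with a median of 0.17. let-7e-5p held the upper end, and it was called under median scaling, with the floor doubled, with a trended prior and without liver array 1. For the miR-17-92 cluster with its paralogs, which promote proliferation, 0 of 12 were called, and of the 11 detected on all 4 arrays 9 pointed to colon. Its widest difference was that of miR-18a-5p, at 5.26 and 5.54 in colon and 4.22 and 5.07 in liver. The miR-15, miR-16, miR-195 and miR-497 list, which acts on the cell cycle, had 0 of 6 called and a median of 0.47. The miR-181 list, which tunes lymphocyte receptor signalling, had 0 of 3 called and a median of 0.69, with miR-181a-5p at 7.19 and 7.09 in colon and 6.30 and 6.40 in liver. A miss of the threshold does not show that these levels were equal, and with liver array 2 left out 1 member each of the miR-17-92 and miR-15 lists was called higher in colon.

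The lists of miR-30, miR-29 and miR-322 held 1 call each, where 11.6% of all tested miRNAs were called. At such a share, 1 call is no result about a list of this size. Of the 10 tested miR-30 miRNAs, 3 were tested through liver alone, and 6 of the remaining 7 pointed to liver. The 1 called was of the first kind. It was miR-30b-3p, at 2.97 and 3.22 in liver and undetected in colon, and thus at least 2.32-fold higher with an adjusted p of 0.0365, a call it lost without colon array 1 (0.0883) or colon array 2 (0.0845). miR-30a-5p, a brighter member, read 8.98 and 9.57 in liver and 8.48 and 8.00 in colon with an adjusted p of 0.155. In the miR-29 list, which represses collagen genes, 1 of 6 was called, through liver alone: miR-29c-5p, at 3.24 and 4.31 in liver and undetected in colon, at least 3.72-fold higher with an adjusted p of 0.0497. The main arms miR-29b-3p (11.14 and 11.14 in colon, 9.82 and 11.12 in liver) and miR-29c-3p (8.98 and 8.90 against 9.22 and 10.06) had adjusted p of 0.423 and 0.320. Of the 5 tested members of the list of miR-322, miR-503, miR-542, miR-351 and miR-450, a cluster on the X chromosome that slows cell division, 3 were tested through liver alone, which set their direction, and miR-450a-5p among these was called. It read 2.89 and 3.90 in liver and was detected on neither colon array (adjusted p = 0.0497). The remaining 2 also pointed to liver, without a call. With a colon array left out, neither miR-29c-5p (0.235 and 0.321) nor miR-450a-5p (0.226 and 0.287) was called, and miR-29c-5p was not called without a liver array either (0.0518 and 0.146).

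Both arms of miR-342, from an intron of Evl, were somewhat higher in liver without a call: miR-342-3p read 10.45 and 11.20 in liver against 10.12 and 10.13 in colon, with an adjusted p of 0.337, and miR-342-5p had an adjusted p of 0.0840.

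The lists of the large Dlk1-Dio3 and Sfmbt2 clusters held no call, where 11.6% of all tested miRNAs were called. Of the 116 miRNAs on the array from the Dlk1-Dio3 region, a maternally expressed cluster on chromosome 12, 101 were detected on none of the 4 arrays. Among the 11 tested, 3 passed through liver alone, and of the 8 detected on all 4 arrays 7 pointed to liver. miR-370-3p, a brighter one, read 8.68 and 8.17 in liver and 7.21 and 7.19 in colon with an adjusted p of 0.0840. miR-1247-3p read 4.80 and 4.46 in liver, and in colon 3.61 on array 1 with no detection on array 2.

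The Sfmbt2 cluster is a rodent array of near-identical miR-297, miR-466, miR-467 and miR-669 hairpins in an intron of Sfmbt2. The list was drawn up by these names, and some tested members lie on other chromosomes, among them miR-466i, miR-466j, miR-466q, miR-467f and miR-669n. Its counts are therefore not those of the intron alone. Of the 24 tested miRNAs of the list, 13 were tested through colon alone, which set their direction. The 11 detected on all 4 arrays also pointed to colon. For this list the liver arrays disagreed. Liver array 1 detected 23 of the 61 members on the array and liver array 2 detected 11, against 24 on each colon array. miR-669l-5p read 5.50 and 5.87 in colon and 5.50 on liver array 1 and was undetected on liver array 2. miR-466m-5p read 5.21 and 5.58 in colon and 5.21 on liver array 1, again with no detection on liver array 2. Liver array 2 was the higher of the pair for 0 of the 24. The test called 0 of the 24 over all arrays, 12 when liver array 1 was left out and 0 when liver array 2 was left out. These members have near-identical sequences, and probes may share signal, so they do not count as separate measurements.

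**Figure D5:**
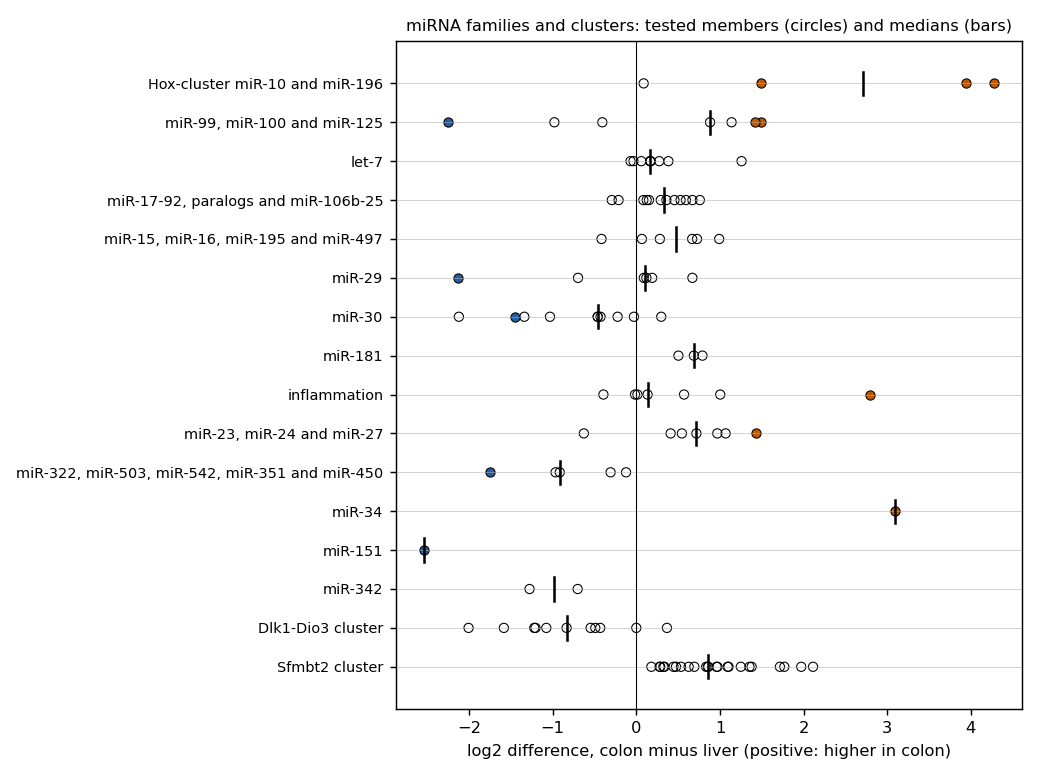
Log2 difference, colon minus liver (horizontal axis), of each tested member of 16 miRNA families and clusters, with a bar at the median, orange fill for a member called higher in colon and blue for one called higher in liver. Most families lie around 0. Of the Hox-cluster miRNAs, miR-10a-5p lies near 0 and the others to the right, 2 of them tested through detection in colon alone. The lists of miR-34 and miR-151, with 1 tested member each, lie to the right and to the left. The 24 members of the Sfmbt2 list, drawn up by name, lie right of 0 without a call, and 13 of them were tested through detection in colon alone.

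Members of a shared seed or hairpin were set side by side. Seeds were compared over the tested miRNAs with a matched sequence. Of 28 seeds held by more than 1 of these, 2 had more than 1 called member, and both were colon-high: AAUACUG, of miR-200b-3p, miR-200c-3p and miR-429-3p, and AGGUAGU, of miR-196a-5p and miR-196b-5p. Their called members were all tested through colon alone, so the shared direction was set by that choice. For 0 seeds were members called in both directions. Both arms were tested for 48 hairpins, of which 35 had arms with the same sign, 9 had a called arm and 0 had both arms called. Of all tested miRNAs 11.6% were called, so few such pairs would be called in both arms. Both arms were detected on all 4 arrays for 32 of the hairpins. For the rest, the choice of tested miRNAs bears on the signs. miR-125a resembled miR-99b in having arms of opposite sign: its 5p arm was 1.49 higher in colon, while miR-125a-3p read 6.71 and 7.67 in liver and 6.28 and 6.14 in colon (−0.98, adjusted p = 0.216).

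Set beside the microglia arrays, the called miRNAs were not all particular to colon and liver. Both microglia arrays detected 10 of the 23 colon-high miRNAs and 9 of the 23 liver-high ones, while neither detected 6 and 12 of them. miR-203-3p, for example, read 5.62 and 5.58 in microglia, above its colon levels. miR-99a-5p read 10.54 and 10.95 in microglia, above both groups.

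Many calls depended on a single array. Of the 46 called miRNAs, 19 were also called without colon array 1, 17 without colon array 2, 28 without liver array 1 and 26 without liver array 2. Over 16 alternative settings, 9 miRNAs were called in each one that tested them: miR-143-3p, miR-96-5p and miR-196a-5p towards colon, and miR-122-5p, miR-126-5p, miR-151-5p, miR-490-5p, miR-3102-3p and miR-99b-3p towards liver. Of these, miR-126-5p and miR-151-5p were detected on all 4 arrays. The others were tested through 1 group alone, which largely sets their direction. A group at the floor on both arrays also adds no spread, so such a call is more easily kept. The 16 settings do not count scaling over all miRNAs of an array, which called 0, and the fit without a detection filter, which called 11 of the 46. Also not counted are the fits without a microglia array and the block with crossed liver numbers described below.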

How the data were processed

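Small RNA levels were measured with 1-colour Agilent miRNA arrays on 100 ng of total RNA from freshly sorted cells, labelled with Cy3. The authors deposited, per the file headers, 1 linear intensity per miRNA with its error and a detection flag, written by Agilent Feature Extraction 9.1 per the submitters' processing notes; undetected miRNAs stand at 0.1. A value table of 595 miRNAs, which the authors deposited on a scale that the values show to be log2, served as an alternative. Its columns share a median of 3.72, how it was normalized is not stated, and it correlated with the levels used here at r = 0.992 over miRNAs detected on all arrays.

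The 21 control rows were left out. Intensities were scaled, floored and log2-transformed as given above. limma 3.58.1 (R 4.3.3) fitted 3 group means to the 6 arrays for the 396 tested miRNAs, with eBayes moderation (3 residual and 2.61 prior degrees of freedom), 2-sided tests and Benjamini-Hochberg adjustment over all 396. Every adjusted p is limma's. A group undetected on both arrays has no spread of its own, which lowers the SE of that miRNA and may make its p too small. The script was tested on simulated data. The files hold no slide or scan record, so no such batch was tested. Names, hosts and neighbours came from RefSeq (GRCm38.p6), where 379 of 396 tested miRNAs had a gene.

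Named miRNAs were, among those called, the 8 largest differences each way with detection on all 4 arrays and the 6 largest bounds each way. To these came the 5 brightest and members of 9 marker and 16 family lists. The 5 brightest were miR-6243, miR-5109, miR-6366, miR-3963 and miR-21a-5p. Their differences were −0.78, −0.23, −0.47, −0.06 and −0.10, and none was called. Members and lists were chosen with earlier results of these data known. The labels do not tie replicate numbers to a shared mouse, day or batch, so numbers were not taken as pairs. Same-numbered arrays of different groups did not deviate together (r = 0.03, 0.05 and −0.18). Alternatives covered scaling, floor, filter, arrays in the fit, prior and replicates.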

Additional observations from a re-analysis of the deposited data

How the results depend on the processing

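The main setting called 46 miRNAs, 23 each way. Scaling to the median called 50 (19 higher in colon, 31 in liver), the 75th percentile over the 4 arrays 33 (15 and 18), no scaling 26 (15 and 11), quantile normalization 31 (15 and 16), control rows 30 (13 and 17), and 34 (16 and 18) came from the authors' deposited values. Control-row scaling moved the median of all tested miRNAs to −0.30. Scaling over all miRNAs called 0 (0 and 0) by limma, with 7 at an unadjusted p under 0.05; on microglia array 1 that percentile is the 0.1 written for undetected miRNAs. Halving and doubling the floor gave 37 and 35. No detection filter gave 12 (3 and 9) of 1247, and detection on all 4 arrays 5 (2 and 3) of 313. A trended prior gave 47. The 4 colon and liver arrays alone gave 29 (18 and 11), as did leaving out either microglia array. Leaving out 1 replicate gave 24 to 110 calls, 9 to 43 higher in colon and 8 to 67 in liver; the highest counts came without liver array 1. With an array left out, its group has 1 array, assumed to vary like the other groups.

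With the replicate number as a block, 31 were called (18 and 13), and with crossed liver numbers, an alternative chosen after seeing the data, 32 (20 and 12). The labels do not tie the numbers to a shared day or pool.

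Among the named miRNAs, differences changed sign as follows, all for miRNAs not called. Control-row scaling gave −0.10 for let-7b-5p, −0.19 for miR-10a-5p and −0.090 for miR-142-5p. For miR-21a-5p quantile normalization gave 0.31, the authors' deposited values 0.24 and scaling over all miRNAs 0.045. For miR-3963 they gave 0.18, 0.15 and 0.092, and scaling over the 4 arrays 0.0020. For miR-5109 quantile normalization gave 0.59 and the authors' deposited values 0.84. Leaving out single arrays gave ranges of −0.026 to 0.36 for let-7b-5p, −0.0082 to 0.18 for miR-10a-5p, −0.059 to 0.42 for miR-142-5p, −0.0014 to 1.01 for miR-181c-5p and −0.22 to 1.13 for miR-214-3p. They were −0.93 to 0.73 for miR-21a-5p, −0.063 to 0.44 for miR-29a-5p, −2.76 to 0.34 for miR-341-3p, −0.37 to 0.26 for miR-3963, −0.55 to 0.077 for miR-5109 and −0.053 to 0.90 for miR-511-3p. Further tested miRNAs, not all listed here, changed sign as well. Without liver array 2, miR-466h-5p of the Sfmbt2 list went from 1.35 to −0.19 and miR-466j of that list from 1.10 to −0.28. The cause was not tested. Signal close to the floor limits the dim miRNAs, and 2 arrays a group limit every value.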
